A study of Mus musculus with 8 samples.

Results

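NFATc2 binding was mapped in D1 cells, a long-term dendritic cell line from C57BL/6 mouse spleen, after 30 min with 10 µg/ml curdlan. The deposited list of peaks held 9438 sites, and the 9419 with a false discovery rate (FDR) of at most 5% are described here, out of 54987 peaks in the 4 lists of the series. The cells carried a lentiviral NFATc2 gene with a V5 tag at its C terminus and a GFP reporter on the same transcript, and those with low GFP had been sorted and expanded. The antibody recognised the tag, so the sites are those of the added protein in a stable line that also has its own NFATc2. The other 3 lists hold H3K4me3 peaks of D1 cells that were not treated (NT), treated with curdlan for 2 h, or treated with curdlan and FK506 for 2 h. Each list came from 1 ChIP library compared with 1 input library, so no difference between conditions could be tested, and intervals in brackets are 95% Wilson intervals that cover counting error only. The NFATc2 ChIP and its input held 14377535 and 10935820 mapped tags, and 794543 of the ChIP tags (5.53%) lay in the 9419 sites.

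NFAT proteins wait in the cytoplasm in a phosphorylated form. When a receptor raises cytoplasmic calcium, the phosphatase calcineurin removes the phosphates and NFAT enters the nucleus, where it binds DNA with the core GGAAA, often beside AP-1. Curdlan is a particulate fungal-type beta-glucan that engages the receptor dectin-1 on dendritic cells, and FK506 blocks calcineurin. H3K4me3 is a histone mark of active promoters.

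The labelled cell type was checked against H3K4me3 within 1 kb of the transcription start sites (TSSs) of marker genes in the NT list. That list is labelled D1 with no mention of the tag. Of 17 dendritic cell and macrophage markers, 16 carried the mark, among them Itgax, Itgam, Cd74, Csf1r and Clec7a, the gene of dectin-1, and Lyz2 did not. The mark was found at 1 of 9 T cell markers (Lck), 1 of 5 NK cell markers (Klrd1), 1 of 6 erythroid markers (Klf1) and 2 of 5 neuron markers (Mtap2 and Tubb3). It was found at 0 of 7 B cell, 0 of 7 neutrophil, 0 of 7 fibroblast and 0 of 4 pluripotent cell markers.

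The sequences of the 10 highest of the 9419 sites are shown so that the NFAT core can be seen at their summits. Sites were ranked by −10 × log10 of the p-value that the peak caller gave, named the p score below. The 19 sites left out by the FDR limit had higher p scores, up to 2423, than these 10 and are described further on. Each line gives the 41 bases of mm9 centred on the summit, plus strand, with GGAAAA on either strand in capitals (TTTTCC on the strand shown).
Lcp1, chr14:75563839-75563879: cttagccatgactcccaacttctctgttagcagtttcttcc
Atp2a3, chr11:72767540-72767580: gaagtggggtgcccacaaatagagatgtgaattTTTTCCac
Phactr2, chr10:13188958-13188998: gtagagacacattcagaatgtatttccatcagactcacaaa
Adam10, chr9:70539965-70540005: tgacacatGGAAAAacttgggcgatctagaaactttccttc
F2r, chr13:96362906-96362946: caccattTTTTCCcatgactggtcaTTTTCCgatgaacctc
Pid1, chr1:84359515-84359555: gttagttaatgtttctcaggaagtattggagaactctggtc
Casr, chr16:36530888-36530928: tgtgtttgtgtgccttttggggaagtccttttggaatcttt
Tnfaip8l3, chr9:53919503-53919543: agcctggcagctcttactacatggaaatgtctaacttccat
Gm5464, chr14:67491641-67491681: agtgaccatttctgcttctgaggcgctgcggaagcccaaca
Farsb, chr1:78487779-78487819: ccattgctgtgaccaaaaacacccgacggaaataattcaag

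GGAAAA itself lay in 3 of these 10 windows, with 2 copies at F2r. The shorter core GGAA, looked up after these sequences had been seen, was in all 10 of them, and GGAAA was in 6. Over all sites, 72.1% of the 41-base windows held GGAA (71.2 to 73.0), against 34.1% of windows 1000 bp to each side (33.4 to 34.7). GGAAA was in 43.4% against 11.8%, and GGAAAA in 17.0% against 3.62%. A window with a longer core also holds the shorter ones, so these 3 shares have a fixed order.

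A second set is shown because it held a pair of the shorter core GGAA. The search did not ask for GGAAA, which not all of the pairs shown hold. GGAA and TTCC facing each other 2 bases apart lay within 100 bp of the summit in 8 of the 100 highest sites, 8.00% (4.11 to 15.0), and in 0 of their 200 flanking windows, which allows a share of up to 1.5% (3 counts of the total). Over all sites the share was 2.93% (2.61 to 3.29) against 0.441% in the flanks. The arrangement reads the same on both strands, and the capitals mark it in 41 bases of the mm9 plus strand.
Slco3a1, chr7:81604518-81604558: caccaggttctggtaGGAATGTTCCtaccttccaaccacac
Edn1, chr13:42344268-42344308: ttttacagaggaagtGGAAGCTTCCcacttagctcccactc
Gas7, chr11:67391534-67391574: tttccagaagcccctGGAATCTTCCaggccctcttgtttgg
Pdgfa, chr5:139500454-139500494: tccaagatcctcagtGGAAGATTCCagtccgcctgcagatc
Irak2, chr6:113595117-113595157: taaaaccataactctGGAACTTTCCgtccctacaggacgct
Inpp5b, chr4:124416129-124416169: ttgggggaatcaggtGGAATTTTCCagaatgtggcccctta
Etv6, chr6:134139927-134139967: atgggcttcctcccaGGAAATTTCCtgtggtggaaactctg
Rnf157, chr11:116267828-116267868: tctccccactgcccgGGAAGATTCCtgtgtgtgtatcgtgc

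These 8 pairs lay between 7 bp (Etv6) and 68 bp (Inpp5b) from the summit. The summit allocated to Pdgfa lay 27.2 kb upstream of it, in an intron of Prkar1b and 759 bp from an annotated TSS of Prkar1b. The pair at Edn1, the gene of the endothelin precursor, directly followed the letters gaggaagt, the site searched for PU.1 and other ETS factors. That site also holds GGAA, so the letters of the pair do not tell these factors from NFAT. Ranked by tags in place of the p score, the 100 highest sites held the pair in 4 (1.57 to 9.84%). GGAAAA can share bases with such a pair. The NF-kB site as searched, GGANTTTCC, cannot match the bases of the pair itself, and 11 of all sites held both within 100 bp. That count therefore does not measure how far the pair resembles NF-kB sites of other lengths, which was not tested.

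The third set shows composite sites, in which GGAAA stands 3 bases before an AP-1 site. This spacing, known from cytokine promoters, was found in 86 of the 9419 sites (0.913%, 0.740 to 1.13) and in 1 of 18838 flanking windows. Among the 100 highest it was in 2, written on the plus strand of mm9 with the composite in capitals.
Rcan1, chr16:92440129-92440169: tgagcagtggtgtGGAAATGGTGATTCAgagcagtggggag
Trpm3, chr19:22382705-22382745: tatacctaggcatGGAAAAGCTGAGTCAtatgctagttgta

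Rcan1 encodes a regulator that binds and inhibits calcineurin. Its composite lay 47 bp from the summit, inside an intron, and the one in Trpm3, a cation channel gene, lay 34 bp from it.

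Within 100 bp of the summit, GGAAAA was in 45.6% of all sites (44.6 to 46.6) and in 18.0% of the flanking windows of equal length. The same letters in the order AAAAGG were in 19.7% against 15.9%. The AP-1 site TGANTCA was in 21.8% (21.0 to 22.6) against 6.14%, GAGGAAGT in 9.27% against 1.44%, and the RUNX site TGTGGT in 28.5% against 15.6%. The C/EBP site TTGCNNAA was in 9.06% (8.49 to 9.65) against 8.31% (7.92 to 8.71), and the GC box GGGCGG in 4.64% (4.23 to 5.08) against 4.22% (3.94 to 4.52), with intervals that overlap. Both strands were searched, and a match describes letters and not binding. GGAAAA and TGANTCA were found together in 8.34% of sites, and 41% held neither within this window. The 100 highest sites had GGAAAA in 46 (36.6 to 55.7%), TGANTCA in 20 (13.3 to 28.9%), TGTGGT in 32 and GAGGAAGT in 12, so their shares did not stand apart from those of all sites beyond the intervals. Anywhere in the peak, GGAAAA was found in 92 of these 100 and in 80.1% of all sites, whose median length was 1063 bp against 1806 bp in the 100.

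**Figure D1:**
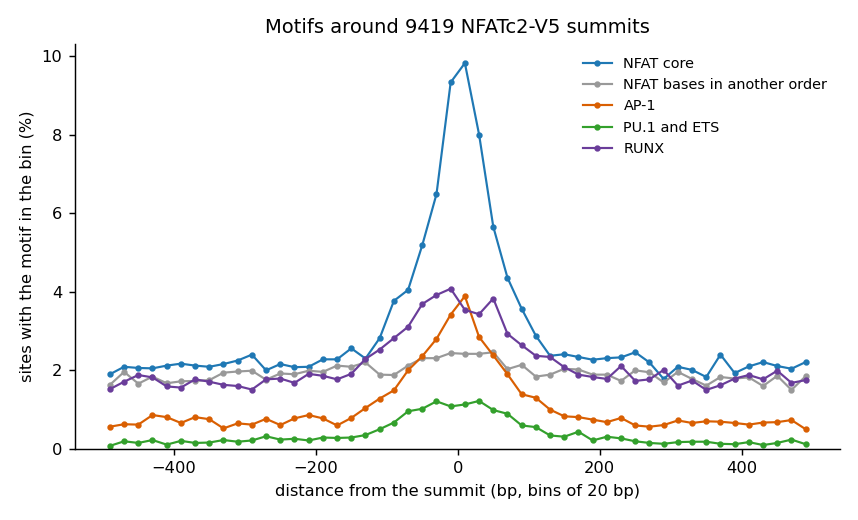
Share of the 9419 sites with a motif in each 20 bp bin, in percent, against the distance from the summit in bp, for the NFAT core, the same bases in another order, and the AP-1, ETS and RUNX sites. The NFAT core reached 9.83% beside the summit against 1.90 to 2.21% beyond 400 bp, and the other order reached 2.46% at most.

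AP-1 sites reached 3.89% in the bin beside the summit, against 0.499 to 0.860% beyond 400 bp. ETS sites reached 1.22% against 0.0743 to 0.234%, and RUNX sites 4.08% against 1.52 to 1.99%. For scale, windows of the same length around the first TSS of 22202 protein-coding genes held GGAAAA in 14.1%, TGANTCA in 4.08%, TGTGGT in 10.1% and GGGCGG in 40.5%. AAAAGG was in 12.4% of these promoters, TTGCNNAA in 5.48%, GAGGAAGT in 2.29%, GGANTTTCC in 0.838%, the facing pair in 0.482% and the composite in 0.0225%. Sites within 1 kb of a TSS differed from those farther away in the partner sites more than in the NFAT core. GGAAAA was in 49.0% of the 1006 near sites (45.9 to 52.1) and in 45.2% of the 8413 others (44.1 to 46.2). TGANTCA was in 14.9% (12.8 to 17.2) of the near sites against 22.6% (21.7 to 23.5), and TGTGGT in 18.7% against 29.6%, so both were rarer near a TSS. GGGCGG had the opposite order, 14.3% against 3.48%.

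The share with the core fell with rank. When the sites were divided by the p score into 10 bins of equal size, GGAAAA was in 53.4% of the highest bin (50.2 to 56.6) and in 42.0% of the lowest (38.9 to 45.2), while the flanks stayed between 17.3 and 19.2%. TGANTCA went from 24.9 to 18.1% and the facing pair from 3.93 to 2.13%. Sites within 1 kb of a TSS took the opposite course, from 7.86% (6.30 to 9.75) of the highest bin to 13% (11 to 15.3) of the lowest.

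**Figure D2:**
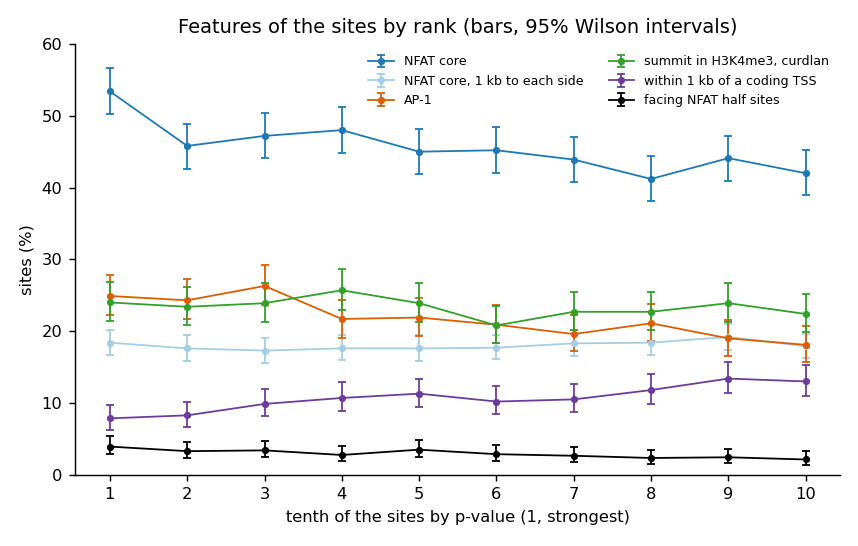
Share of sites in percent, with 95% Wilson intervals, in each of 10 bins of the sites by p score, from the strongest to the weakest. GGAAAA falls from 53.4 to 42.0%, sites within 1 kb of a TSS rise from 7.86 to 13%, and the share inside a H3K4me3 peak after curdlan stays between 20.8 and 25.7%.

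Each summit was allocated to the nearest TSS of a protein-coding gene. The median distance was 17.7 kb for all sites and 21.9 kb for the 100 highest by p score, and the farthest of these lay 680 kb from a TSS. Within 1 kb were 10.7% of all sites (10.1 to 11.3) and 4 of the 100 highest (1.57 to 9.84%). Introns held 45.4% of all summits and 38 of the 100, exons 4.68% and 1, and the space between genes 49.9% and 61. Upstream of the TSS lay 48.0% of all sites and 49 of the 100.

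Values of the highest sites describe the ranking and were not tested. The p score of the 100 highest ran from 770 to 1193 against a median of 101 over all sites. Their tags ran from 132 to 863 with a median of 286, against 63 over all sites, and their fold enrichment over input from 17.0 to 82.5. The last site inside the 100 belonged to Tomm20 with a p score of 770 and the first outside to Ccl2 with 768. The 100 sites were nearest to 97 genes, since Runx1, F2r and Ablim1 had a pair each. Genes of the cytokine and chemokine tables of the study were the nearest gene of 4 of them (Il1a, Egr2, Tnfsf8 and Cxcl2).

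Among the 20 highest by p score, the first 3 sites lay at genes of the cytoskeleton and of calcium handling. The highest site (385 tags, p score 1193, 36.0-fold over input) lay in an intron of Lcp1, the actin-bundling protein L-plastin of leukocytes, 26.3 kb upstream of its nearest coding TSS. The second (381 tags, 1187, 48.2-fold) lay 7.11 kb upstream of Atp2a3, a calcium pump of the endoplasmic reticulum. Phactr2, a regulator of phosphatase and actin, followed with 248 tags and a p score of 1167 in its own intron. Prex1, an exchange factor for the GTPase Rac, had 290 tags and 1037 between genes, 183 kb downstream of its TSS.

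Receptors and other proteins of the cell surface made up a second group of the 20. The intronic site of Adam10, a protease that sheds surface proteins, had 283 tags and a p score of 1165 at 64.0-fold, the highest fold of the 20. F2r, a thrombin receptor, had a site of 347 tags (1160) at 25.5 kb and a second one of 210 tags (848) at 18.0 kb, both downstream of its TSS. Casr, the calcium-sensing receptor, had 506 tags and 1152 in an intron. Il10ra, the receptor chain that binds interleukin-10, had 347 tags and 1058 at 16.5 kb. Ms4a7, a membrane protein of macrophages, had 332 tags and 1079, Ifitm3, an antiviral membrane protein, 412 and 1116, and Tmem2, a cell surface hyaluronidase, 722 and 1109 at 119 kb.

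The other sites of the 20 were spread over many functions. Tnfaip8l3 had 377 tags and a p score of 1144, and Farsb, a subunit of a tRNA synthetase, 561 (1117). Slco3a1, an organic anion transporter, had 223 tags and 1065 in an intron, and Adamts6, a secreted protease, 274 and 1053. Bmp10, a growth factor, had 407 tags and 1029, Pid1 346 and 1159, Gm5464 416 and 1129, and Edn1 188 and 1000. Of the 20, 5 lay in an intron of the gene they were allocated to, 0 lay within 1 kb of a TSS and 3 lay over 100 kb away, so the allocation names the nearest gene and no more.

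**Figure D3:**
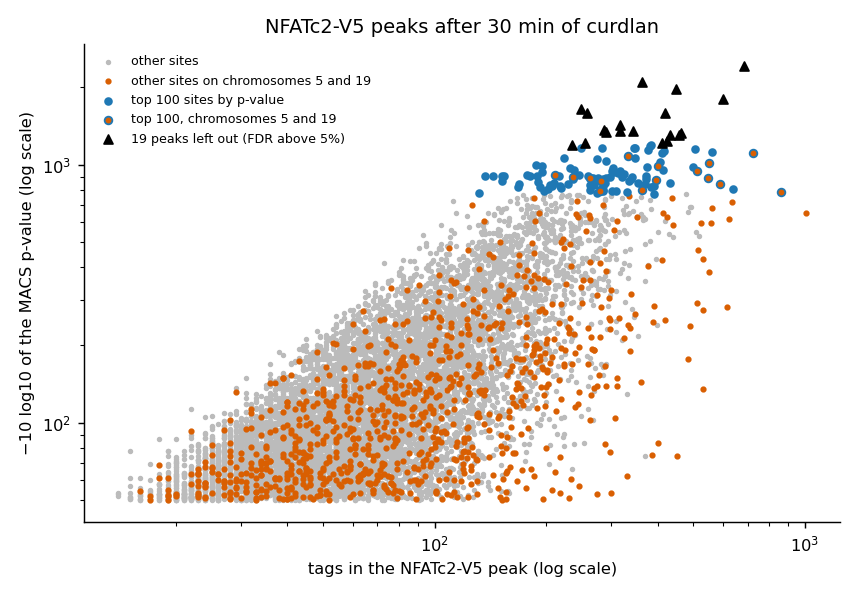
Each site by its tags and its p score, both on log axes, with the 100 highest by p score in blue, chromosomes 5 and 19 in orange and the 19 sites left out by FDR as black triangles. Of the 100 highest by tags, 42 lie on chromosomes 5 and 19, and 35 are also among the 100 highest by p score.

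The ranking by tags gave other sites. The highest was 82 bp upstream of Rilpl2, with 1007 tags over 7690 bp and a p score of 653. Next came Ch25h, the enzyme that makes an oxysterol from cholesterol, with 863 tags, then Tmem2 with 722 and Nrp1, the co-receptor neuropilin, with 640. Gcnt1, a glycosyltransferase, had 624 tags. The site allocated to Frmd8 had 617 and lay 28.5 kb downstream of its TSS, but 1296 bp from a TSS of Neat1, which is not among the protein-coding genes. Sgms1, a sphingomyelin synthase, had a pair among the 20, with 532 and 524 tags in its introns. Signalling genes among the 20 were Grk5, a kinase of G-protein-coupled receptors, with 548 tags, Rhof, a small GTPase, with 529, and Rheb, the GTPase that activates mTOR, with 515. Niacr1, the niacin receptor, had 551 and Srgn, the granule proteoglycan serglycin, 518. Among the remaining ones were Pion (636), D5Ertd579e (589), Farsb (561), Snx8 (561), Cux1 (557) and Rfk (532). The lists of 20 by tags and by p score shared 3 sites, and the lists of 100 shared 35.

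Chromosomes 5 and 19 stood apart in tags. They held 9.86% of all sites but 42 of the 100 highest by tags, 17 of the 20 highest by tags and 15 of the 100 highest by p score. The median site there had 75 and 99 tags, against 50 to 67 on the other 18 chromosomes. Fold over input, 12.8 and 11.9, was below the range of 12.9 to 14 on the others. H3K4me3 peaks in NT had 244 and 259 tags per kb there against 153 to 222 elsewhere, the same order as in the NFATc2 list. After division by the median of the chromosome, 30 of the 100 highest by tags were still on chromosomes 5 and 19. The part of this in the ranking by tags was not tested.

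The FDR limit took out the 19 sites with the highest p scores, 1193 to 2423, and no others. In the deposited list the FDR of the first 4216 sites equals 100 divided by the rank, within 0.0051 percentage points, so the first site has 100% and the twentieth 5.0%. The highest p score, 2423 with 686 tags, belonged to a site 96.3 kb from Cntnap5c. The next was 14256 bp downstream of the TSS of Spry1, an inhibitor of receptor tyrosine kinase signalling, with 363 tags, 2092 and 73.2-fold. Atp8b1, a lipid flippase, followed in an intron with 601 tags and 1793, Atg7, an enzyme of autophagy, with 248 and 1653, and Sgsh, a lysosomal sulfatase, with 258, 1594 and 96.9-fold. Others were allocated to Hdc, the enzyme that makes histamine (1425, 18.1 kb upstream, in an intron of Gabpb1), and Tbl1xr1 (1368, 239 kb upstream). The site of Dab2, an endocytic adaptor, lay 5.28 kb downstream in its intron (1342). That of Cited2, a transcriptional co-regulator, lay 375 kb upstream (1304). GGAAAA was within 100 bp of the summit in 12 of the 19. With these sites kept, 81 of the 100 highest stayed the same.

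H3K4me3 was compared side by side for the 3 conditions, bearing in mind that the treated samples were measured at 2 h and NFATc2 at 30 min. The H3K4me3 samples are labelled D1 with no mention of the tag, while NFATc2 was mapped in the line with the tagged gene. Of all NFATc2 summits, 23.8% lay in a H3K4me3 peak in NT, 23.3% after curdlan and 22.6% after curdlan with FK506. For the 100 highest they numbered 20 (13.3 to 28.9%), 18 (11.7 to 26.7%) and 17 (10.9 to 25.5%), with intervals that included the shares over all sites. Ranked by tags the numbers were 34 (25.5 to 43.7%), 34 (25.5 to 43.7%) and 31 (22.8 to 40.6%), and these intervals lay above the shares over all sites. In none of the lists were 73.3% of all sites and 77 of the 100 highest. Sites in a peak after curdlan but not in NT were 2.34% of all, and sites in a peak in NT but not after curdlan 2.78%.

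Single sites differed between the lists. Since the H3K4me3 libraries held 16662316 (NT), 21289349 (curdlan) and 19468498 (curdlan with FK506) tags, peaks are given in RPM, tags scaled to the total of the library, with the length that was called. Each value is the total of the called peak that held the NFATc2 summit, so the values of a site can cover different stretches. No common window was counted. Whether a difference reflects a peak that was split or merged in the calling was not tested. At the Tnfaip8l3 site the H3K4me3 peak had 17.9 RPM over 3.33 kb in NT, 134 over 11.9 kb after curdlan and 13 over 2.94 kb with FK506, at 8.49-fold, 101-fold and 13-fold over input. Tctex1d4, whose site among the 19 left out lay 42 bp from the TSS, had the same order with 20.7, 128 and 15.4 RPM over 3.67, 11.1 and 3.80 kb. At Gm5464 the peak that held the summit had 136 RPM over 8.80 kb in NT, 9.11 over 2.99 kb after curdlan and 9.09 over 2.60 kb with FK506. A peak at the Cd3d site was listed after curdlan only, with 235 tags. At Egr2, whose NFATc2 site with 270 tags lay 597 bp upstream of the TSS, the peak had 105, 140 and 113 RPM over 4.48, 7.93 and 4.84 kb.

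Some of the sites with most tags lay in broad marks that were called over more bases after curdlan. Their RPM are likewise totals over the called length and not over a common window. At Rhof the peak had 189 RPM over 8.37 kb in NT, 655 over 21.9 kb after curdlan and 259 over 8.75 kb with FK506. Rilpl2 had 115 over 4.88 kb, 314 over 14.1 kb and 273 over 12.5 kb in the same order. Srgn had 99.4 over 7.29 kb, 192 over 10.6 kb and 175 over 10.2 kb. At Rfk the called length was about the same, 6.73, 6.78 and 6.70 kb, with 149, 101 and 94.8 RPM and 30.7, 28.9 and 29.5-fold over input. Of the 20 sites with most tags, 8 lay in a H3K4me3 peak of some list and 12 in none.

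By nearest TSS the sites fell to 5021 of 22202 protein-coding genes (22.6%). Of these genes 3001 had 1 site, 1014 had 2, 305 had at least 5 and 33 had at least 10. A count of sites grows with the stretch of chromosome that is nearest to a gene, and the median stretch was 46.6 kb for all genes, 82.1 kb for genes with a site and 456 kb for the 33. Of the 10817 genes (48.7%) with H3K4me3 within 1 kb of a TSS in NT, 33.4% had a site, against 12.4% of the 11385 others.

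Klf6, a zinc finger transcription factor induced early in many cells, had the most sites, 20 of them with 19 to 273 tags over a stretch of 888 kb. Its 2 largest lay 248 kb (273 tags) and 27.1 kb (250 tags) downstream of the TSS. GGAAAA was near the summit in 11 and TGANTCA in 10 of its 20. Runx1, a transcription factor of blood cell development, followed with 16 sites of 26 to 354 tags, 7 of them inside the gene. Its 2 sites among the 100 highest stood 203 and 207 kb upstream, with 335 and 354 tags, and 1 site of 95 tags lay 315 bp from the TSS.

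Several of the 12 genes with the most sites act on signalling. The 12th place was shared by 4 genes with 12 sites each, and Rasgef1b was taken before Btg1, Eea1 and Gm17350 for its higher sum of tags. Trib1, a pseudokinase that directs the breakdown of C/EBP factors, had 15 sites, 5 upstream and 10 downstream, with 32 to 264 tags. Ubash3b, a phosphatase that acts on Syk-family kinases, had 13, of which 11 were inside the gene and 0 held TGANTCA. Rasgef1b, an exchange factor for Ras-family GTPases, had 12, all upstream, with up to 439 tags at 74.3 kb. Hivep2, a zinc finger protein that binds NF-kB-type sites, had 13, with up to 231 tags at 120 kb downstream.

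The others differ in function. Irg1, the enzyme that makes itaconate in activated macrophages, had 14 sites, 13 of them upstream and as far as 241 kb, with 36 to 239 tags. Hlx, a homeobox factor, had 13, all downstream. Tbl1xr1, a part of a co-repressor complex, had 13 in the longest stretch, 1983 kb, and Ext1, a polymerase of heparan sulfate, had 15, of which 14 were upstream. Tomm20, a receptor for import into mitochondria, and 3930402G23Rik had 15 each, all downstream and none inside the gene. The stretch at Tomm20 was the shortest of the 12, 189 kb, which gave 7.94 sites per 100 kb against 0.357 over all genes. Its sites lay 35.1 to 157 kb from its TSS, toward Irf2bp2, which had 10 sites, all upstream and up to 176 kb away. The allocation thus splits the sites between these genes by distance alone. With TSSs of any annotated gene, Tomm20 was not among the 12.

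**Figure D4:**
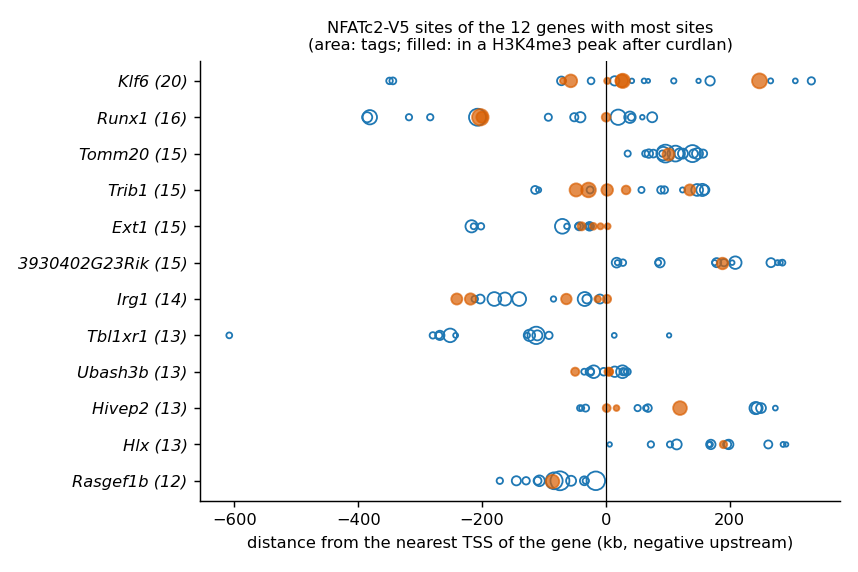
Position of each site around the TSS, in kb, of the 12 genes with the most sites, with the point area by tags and filled points for sites in a H3K4me3 peak after curdlan. Of the 174 sites, 116 lie over 50 kb from the TSS, 1 lies within 1 kb and 33 are filled.

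Over these 12 genes, GGAAAA was near the summit in 47.1% of the 174 sites and TGANTCA in 29.9%. In a H3K4me3 peak after curdlan were 33 of the 174, and 10 of the 12 genes carried the mark at a TSS in NT. None of the 12 was among the 12 genes with the most sites per 100 kb, counted over genes with at least 5. The densest was Cish, an inhibitor of cytokine signalling through STAT5, with 5 sites in 25.5 kb (19.6 per 100 kb). Nr4a1, an immediate early nuclear receptor, had 16.6 per 100 kb, Sh2d7 15.8, Dpysl2 14.2 and Cass4, an adaptor of focal adhesions, 13.4. Summits within 5 kb of each other made up much of this density, since the 5 sites of Cish merged into 2 and the 5 of Nr4a1 into 3.

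Gene functions were described by 23 lists with 459 genes found in the annotation. Of these, 254 (55.3%) had a site against 22.6% of all genes, and 236 (51.4%) had a TSS with a summit within 20 kb against 22.7%. Of the 378 with H3K4me3 at a TSS in NT, 225 (59.5%) had a site, against 33.4% of all such genes. The median stretch was 61.8 kb in the lists against 46.6 kb, and the lists had 1.02 sites per 100 kb against 0.357. They hold many genes known from immune cells, so a share above that of all genes describes the choice of lists as well, and no list was tested. Of the 100 highest sites, 11 lay at 10 listed genes, beside 7.71% of all sites. The 10 genes were Lcp1, Atp2a3, Il10ra, Itgae, Rcan1, Runx1, Tgfbr2, Egr2, Nr4a3 and Etv6. In the paragraphs on the lists, a value in brackets after a gene is the highest p score among its sites. Each count of members with a site stands beside 22.6% of all genes and 33.4% of genes with H3K4me3 at a TSS in NT.

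**Figure D5:**
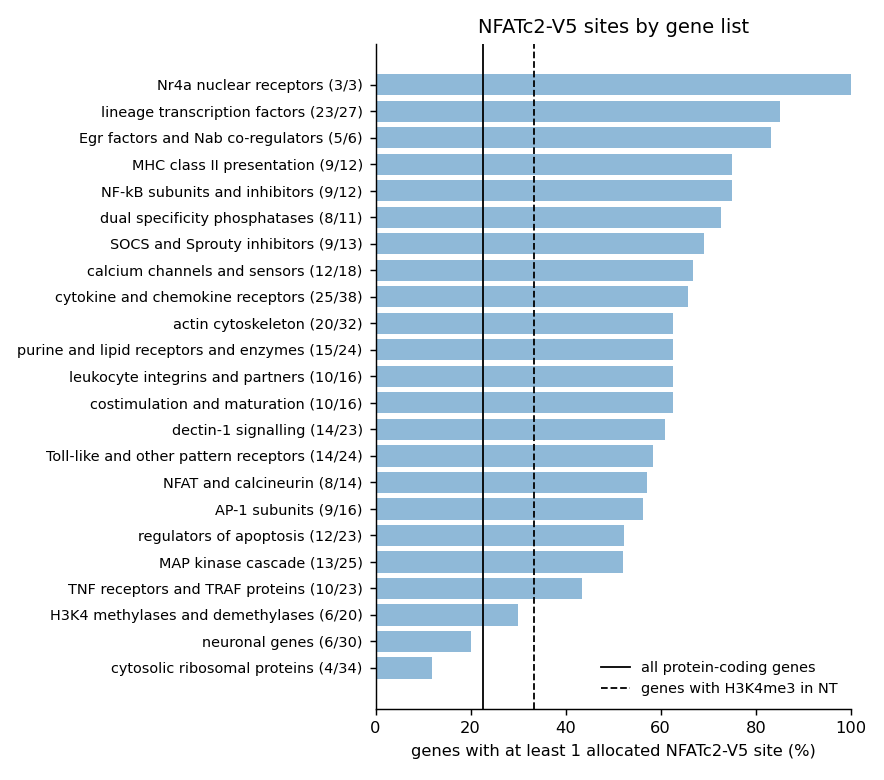
Share of the genes of each list with at least 1 allocated site, in percent, beside all protein-coding genes (22.6%) and those with H3K4me3 at a TSS in NT (33.4%). Lineage transcription factors reach 85.2% with 23 of 27, and ribosomal proteins 11.8% with 4 of 34.

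Genes of the calcium and NFAT pathway itself carried sites. Of 14 NFAT and calcineurin genes 8 had one. Rcan1 had 6 sites, the highest with 152 tags, a p score of 909 and 81.6-fold. Nfatc1, another member of the family, had 6 with 349 tags and 721 at the highest, in an intron 96.2 kb from the TSS. Ppp3cc and Ppp3ca, catalytic subunits of calcineurin, had highest p scores of 424 and 131 in introns. Nfatc2 itself had 1 site of 31 tags (54.3), close to the threshold of the list. Of 18 calcium channels, pumps and sensors 12 had a site, led by Atp2a3 (1187), the plasma membrane pump Atp2b1 with 10 sites (575), the kinase Camk1d (458) and the channel Orai3 with 86 tags 840 bp upstream (284).

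The pathway of dectin-1 had sites at 14 of 23 genes. Vav3, an exchange factor for small GTPases, had 11 with 365 tags and 626 at the highest, and Ikbkb, a kinase of IkB, had 499. Lyn, a Src-family kinase, had 491 in an intron. Clec7a, Card9, Bcl10, Malt1 and Plcg2 had none allocated. The list of the MAP kinase cascade had 13 of 25, with Mapkapk2 (548), Mapk14, which encodes p38 alpha (280), and Map3k8, with 110 tags at 439 bp upstream (220).

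Transcription factors that answer to stimulation carried sites near their TSSs in several cases. Of 6 Egr factors and Nab co-regulators 5 had one, with Egr2 (837), Egr3 (488, 658 bp upstream), Egr1 (442) and Nab2 (76.5, 390 bp upstream). All 3 Nr4a receptors had sites, 8 at Nr4a3 (highest 817, 178 kb upstream), 3 at Nr4a2 (569, 1.67 kb) and 5 at Nr4a1 (152). Of 16 AP-1 subunits 9 had one, with lower p scores, at Atf3 (245), Jun (198), Batf2 (196) and Batf3 (154), and Junb, Jund and Fosl1 had none. A summit lay within 20 kb at 7 of the 16 (43.8%). All 16 carried H3K4me3 at a TSS in NT, and the share over all such genes was 35.0%. The NF-kB list had 9 of 12, namely the inhibitors Nfkbid (528, 103 bp upstream), Nfkbiz (261) and Nfkbia (198), the subunit Rel (222) and 5 more.

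Lineage transcription factors had the largest share among lists of over 6 genes, 23 of 27, with 127 sites in all. Their median stretch was 187 kb and their density 1.12 sites per 100 kb, near that of the lists together. Beside Runx1 (864) and Klf6 (604), Etv6, a repressor of the ETS family, had 11 sites (799), and Irf4, needed for a subset of dendritic cells, had 7 (676). Sfpi1, which encodes PU.1, had 3 (557). Cebpa, Stat3, Stat5b and Zbtb46 had none.

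Inhibitors of signalling were among the genes with sites. Of 13 SOCS and Sprouty genes 9 had one, with Cish (649), Socs3 (408), Socs5 (366) and Spred1 (247). Spry1 is also in this list, and its site with a p score of 2092, above all of these, was left out by the FDR limit. Of 11 dual specificity phosphatases, which switch off MAP kinases, 8 had one, with Dusp5 (214), Dusp6 (200), Dusp16 (171) and Dusp4 (145). A summit lay within 20 kb at 4 of the 11 phosphatase genes (36.4%), against 22.7% of all genes. Of the 11, 10 carried H3K4me3 at a TSS in NT, and the share over all such genes was 35.0%, near that of the phosphatases.

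Genes of antigen presentation had small stretches and the highest density of the lists. Of 12 genes of MHC class II presentation 9 had a site and 10 a summit within 20 kb, their median stretch was 22.6 kb, and there were 5.95 sites per 100 kb. The list had 18 sites in all. Genes that lie close together can share a summit within 20 kb, and the counts were not corrected for this. H2-Aa, the alpha chain of a class II molecule, had a highest p score of 298, H2-Ob 275, the invariant chain Cd74 204 with 173 tags 153 bp upstream, and Ciita, the activator of the class II genes, 198 with 175 tags 290 bp upstream. Of 16 genes of costimulation and maturation 10 had a site, with Cd44 (295), Cd83 (222), Pdcd1lg2 (215) and Cd86 (199), while Cd40 and Cd80 had none.

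Cell movement and adhesion were represented by the actin list with 20 of 32 and the integrin list with 10 of 16. Beside Lcp1, the scaffold Iqgap1 had 583, Wipf1, a partner of WASP, had 9 sites (403), and Plek, pleckstrin, had 5 (312). Actb, Rac1 and Rhoa had none. Itgae, which encodes the integrin chain CD103, had 178 tags, 911 and 68.1-fold in an intron, and Itga4 (405), Itgb2 (232) and Itgb1 (150) followed.

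Receptors formed several lists. Of 38 cytokine and chemokine receptors 25 had a site, with Il10ra (1058), Tgfbr2 at 176 kb upstream (857), Ccr1 with 244 tags 12 bp upstream (570) and Cxcr4 (501). Of 24 Toll-like and other pattern receptors 14 had one, led by the C-type lectins Clec12a (470), Clec4n, which encodes dectin-2 (458), and Clec9a (321), then the inflammasome sensor Nlrp3 (222). TNF receptors and TRAF proteins had 10 of 23 (43.5%, against 22.6% of all genes), with Cd27 (577), Traf6 (268), Birc3 (160) and Tnfrsf1a (119). Of their 18 members with H3K4me3 at a TSS in NT, 7 (38.9%) had a site, near the 33.4% of all such genes. Purine and lipid receptors and enzymes had 15 of 24, with the adenosine receptor Adora2b (611), the prostaglandin receptors Ptger4 with 9 sites (375) and Ptger2 (336), and the ectonucleotidase Entpd1 (353). Ptgs2 had none allocated.

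Regulators of apoptosis had sites at 12 of 23 genes. Bcl2l11, which encodes the pro-apoptotic protein Bim, had 8 sites (598), Bid 2 (354), Cflar 3 (310) and Bcl2, which blocks apoptosis, 8 (290). The highest sites thus lay at genes that promote and at genes that block apoptosis.

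The last 3 lists had the lowest shares of the 23. Ribosomal proteins were below the 22.6% of all genes, neuronal genes near it and the list on H3K4 methylation above it. Of 34 cytosolic ribosomal proteins, all with H3K4me3 at a TSS in NT, 4 had a site, Rpl38 (193), Rps13 (181), Rps7 (90.2) and Rps16 (52.7), and their median stretch was 14.6 kb. Of 30 neuronal genes 6 (20%) had a site, led by Mtap2 (427), Gria1 (181), Neurod1 (115) and Nefl (69.5), with a median stretch of 213 kb and 0.0604 sites per 100 kb. Of the 4 neuronal genes with H3K4me3 at a TSS in NT, 2 had a site. The list of H3K4 methyltransferases and demethylases also holds partner proteins such as Wdr5. Of its 20 genes 6 had a site, namely Kdm2b (462), Kdm5c (452), Mll5 (222), Setd1b (103), Wdr5 and Mll2. This was a share of 30.0% beside the 33.4% of genes with H3K4me3 at a TSS.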

How the data were processed

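Per the labels and methods the authors sequenced single-end reads of 51 bases, aligned them to mm9 with Bowtie and called peaks with MACS (version 1.4.2 per the file headers, p-value threshold 1e-05) on 1 ChIP library against 1 input library per condition. MACS gave, per peak of the deposited lists, a count of ChIP tags, the p-value as −log10 (the authors' column holds −log10 p times 10), the fold enrichment over input as a ratio and the FDR in percent. These values were used as deposited. The headers give a tag size of 36 bases for the NFATc2 list and 50 for the H3K4me3 lists, and the difference from the stated read length is not explained in the sources used here. Duplicate tags at a position had been limited to 1 per the file headers.

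NFATc2 peaks with an FDR above 5% were left out. H3K4me3 peaks were used without that limit. A summit was the start plus the summit offset. TSSs were those of protein-coding transcripts in GENCODE M1 (Ensembl 65, mm9), and genes of 1 symbol on 1 chromosome were counted as 1 gene. A gene's stretch is the part of the chromosome nearest to its TSSs. Older symbols were matched through RefSeq synonyms, and Cebpd and Kdm5d were not analysed here. Motif windows reached 100 bp to each side of the summit, with flanks centred 1000 bp away. Sequences were read from the mm9 genome, and none is shown for chromosome 18.

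The genes named are those of the 20 highest sites by p score and by tags, the 12 genes with the most sites (ties by summed tags), and the 4 members of each list with the highest p score, with listed genes among the 100 highest sites. Some genes that this rule names are not reported here. Examples without a site, the H3K4me3 examples, sites left out by FDR and the densest genes were picked after their values were seen. The sites, lists and tests were chosen with earlier results of these data known. With 1 library per condition no test was made, and counts have no replicate error. Alternatives were another rank, threshold, window, distance and annotation. Scripts were tested on simulated data with known answers (5 of 5 tests passed). The software was samtools 1.23.1 and Python 3.11.15 with pysam 0.24.0, scipy 1.17.1, numpy 2.4.6, pandas 2.3.3 and matplotlib 3.10.9.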

Additional observations from a re-analysis of the deposited data

How the results depend on the processing

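For 51 results, 166 values were recomputed under other settings, 125 stayed within the interval or within 1.5 times of the reported value and 41 moved. At a p-value of 1e-10 or less 4741 sites at 3049 genes were left, and at 1e-20 2031 sites. With TSSs of any annotated gene, the median distance was 11.1 kb for all sites and 12.6 kb for the 100 highest. The 100 highest by p score shared 35 sites with those by tags, 35 with those by fold and 36 with those by tags over the chromosome median, a setting chosen after the data were seen. In the 100 highest, GGAAAA was in 31.0% within 50 bp and 68.0% within 250 bp, TGANTCA in 12 and 36.0%. Ranked by tags, the facing pair was in 4% of the 100 and H3K4me3 after curdlan at 34.0%. Of the 12 genes with the most sites, 6 were still among the 12 after summits within 5 kb were merged, 0 by sites per 100 kb, 7 with TSSs of any gene and 7 at 1e-10. Without an FDR limit, a setting mostly chosen after the data were seen, 26 of 26 values stayed the same by this measure. These values did not cover the 20 highest sites named by p score, all of which rank below the 19 left out. Which sites are named there thus depends on the limit. Without chromosomes 5 and 19, also added later, 235 of 420 listed genes (56.0%) had a site against 22.3% of all. No paired analysis was possible because each condition has 1 ChIP library, and for the same reason no replicate could be left out. The smallest site holds 14 tags, and the effect of depth on the number of sites was not tested.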
